A study of Mus musculus with 9 samples.

Results

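The effect of adding blebbistatin to cyclically strained melanoma cells was examined in 6 of the 9 libraries of the series, the 3 of the MS + Blebb. group and the 3 of the MS group. Compared were all named genes whose level averaged 1 FPKM or more across the 9 libraries, which was 9776 of the 22972 names listed. FPKM counts sequenced fragments relative to the length of the transcript and to the mapped fragments of the library. The cells were B16, an established mouse melanoma line, labelled WT and grown on an elastic PDMS film in DMEM with 10% fetal bovine serum. The MS group was cyclically strained through the film for 72 h, after a first period of culture without straining. The MS + Blebb. group received blebbistatin at 100 ng/mL for 72 h. Its labels name the drug and no straining, while the study's methods name both, so the strain in this group rests on the study's text. The CTL group, 3 unstrained libraries without drug, served as reference and shared the estimate of the spread. All cultures were of 1 cell line, and no carrier control for the drug is named in the labels or the methods. The 3 libraries of a group are labelled parallel experiments, and nothing states whether they came from separate cultures, so the p-values measure only the spread between these samples.

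Non-muscle myosin II is the motor that pulls on actin filaments and gives a cell its contractile tension. Blebbistatin binds its motor head and holds it in a state of weak attachment to actin, so that actin bundles and focal adhesions, the sites where integrins link the cell to its support, lose tension. Tension of this kind is known to bear on transcription through several routes, among them the cofactors of SRF, the cofactors YAP and TAZ, SMAD factors and the ERK kinase cascade, and melanoma cells are known for a high output of ERK.

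The identity of the cells was checked before the comparison. Tyrp1, Dct, Pmel and Mlana, genes of the pigment organelle, lay between 970.2 and 6318 FPKM in every library, and Sox10, a melanocyte lineage factor, between 209.8 and 312.9 FPKM. Markers of fibroblasts summed to at most 0.427 FPKM in the 6 libraries compared, with Dcn and Lum at 0. Markers of keratinocytes and of endothelial cells summed to at most 0.0363 and 0.141 FPKM, and those of macrophages to between 2.28 and 4.32 FPKM, most of it Cd68, with Ptprc at 0. In each group 1 library stood apart from the other 2, which was replicate 1 in CTL, replicate 3 in MS and replicate 2 in MS + Blebb. Ddit3, a stress-induced transcription factor, was at 136.7, 99.1 and 131.4 FPKM in these libraries and between 18.5 and 45.7 FPKM in the other 6. The strained group and the drug group held 1 such library each, and values without the 3 libraries are given for the list medians that they turned.

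No gene passed an adjusted p of 0.05 in the comparison of MS + Blebb. with MS. Among the 10109 genes tested, which include 333 loci named only by a transcript assembler, the smallest adjusted p was 0.375 (limma, Benjamini-Hochberg), for Ccl5. At an unadjusted p under 0.05, 73 genes were higher in MS + Blebb. (0.722% of the genes tested) and 53 were lower (0.524%). Together these were 1.25% of the genes, a smaller share than that threshold passes on average where no gene differs. In 308 genes (3.05%) all 3 MS + Blebb. libraries lay above all 3 MS libraries, and in 69 (0.683%) all 3 lay below. The groups thus did not overlap in 3.73% of the genes. Where nothing differs, 3 libraries separate from 3 others in a larger share of genes than this on average. No overlap alone therefore does not mark a gene as changed. Both kinds of count depended on single libraries. The unadjusted counts were 308 higher and 626 lower without MS + Blebb. replicate 3, against 23 and 11 when MS replicate 1 was left out. Differences were small. The median absolute difference was 0.154 on the log2(FPKM + 1) scale, on which all log2 differences are given, 93.2% of the genes differed by less than 0.5, and 13 differed by 1 or more. The 95% interval of a difference reached a median of 0.447 to either side, so a difference of that size could not be told from 0 in a typical gene. Leaving out MS replicate 2 gave 1 gene with an adjusted p under 0.05, the predicted gene Gm49527 (adjusted p = 0.0398, limma), and leaving out any other single library gave 0. Gm49527 shares exons with Commd5 on the same strand.

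Ccl5, a chemokine that attracts T cells and monocytes (chromosome 11, 83525778 to 83530518, GRCm38.p6), had the smallest p. Its level was 8.80, 9.45 and 6.37 FPKM in the MS libraries and 26.8, 24.0 and 19.0 FPKM in the MS + Blebb. libraries, against 11.1, 8.83 and 11.2 FPKM in CTL. Every library of the drug group lay above every library of the other groups. The MS + Blebb. mean was 2.83 times the MS mean, a log2 difference of 1.40 (SE 0.19, 95% interval 0.98 to 1.82), and the difference stayed between 1.25 and 1.53 with any 1 library left out.

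Of the named genes averaging 5 FPKM or more, 236 were higher with no overlap and 38 were lower with no overlap. The 12 of each direction with the smallest p are described here, and all but Ccl5 had an adjusted p of 0.897 (limma). Bcl2l1, which encodes the survival protein BCL-xL, was at 25.9, 31.5 and 25.2 FPKM in MS and at 40.7, 37.1 and 36.2 FPKM in MS + Blebb. Its 3 drug libraries lay above all 6 others, and the log2 difference was 0.46 (SE 0.12). Lrch4, a leucine-rich repeat protein, was at 8.68, 8.02 and 9.66 FPKM in MS and at 26.5, 11.4 and 16.7 FPKM in MS + Blebb. In CTL it was at 27.2, 20.4 and 27.3 FPKM, so the MS libraries were the low ones, and MS + Blebb. replicates 2 and 3 lay below all CTL libraries. The log2 difference of Lrch4 was 0.90 (SE 0.26). The predicted gene Gm20605 shares exons with it on the same strand, so the reads of these gene models may be split in a way that cannot be checked here. Spr, the last enzyme of tetrahydrobiopterin synthesis, was at 72.9, 71.4 and 81.8 FPKM in MS and at 110.3, 105.6 and 88.1 FPKM in MS + Blebb., a log2 difference of 0.42 (SE 0.13). Cebpb, a bZIP transcription factor of stress and inflammatory responses, was at 13.6, 11.2 and 11.97 FPKM in MS and at 16.4, 20.6 and 15.3 FPKM in MS + Blebb., a log2 difference of 0.47 (SE 0.14). Its CTL libraries lay between 13.1 and 13.5 FPKM. An exon of Tmem189 lies on the opposite strand of Cebpb, and whether the counting used strand is not stated.

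The other 7 genes of the higher set included regulators of MAP kinases and an immune ligand. Dusp4, a phosphatase that removes the activating phosphates from ERK and is itself induced by it, was at 40.7, 39.1 and 45.4 FPKM in MS and at 55.8, 47.4 and 59.2 FPKM in MS + Blebb. (log2 difference 0.36, SE 0.13). Map2k7, the kinase that activates JNK, had a log2 difference of 0.37, with MS between 18.3 and 23.1 FPKM and MS + Blebb. between 26.4 and 30.3 FPKM; the predicted gene Gm49320 shares its exons. Cd276, the immune checkpoint ligand B7-H3, had a log2 difference of 0.54, with MS between 4.02 and 6.45 FPKM and MS + Blebb. between 7.50 and 9.71 FPKM. Tinagl1, a secreted matrix protein, and Dipk1b had log2 differences of 0.81 and 0.76. Sipa1l3, a Rap GTPase activating protein, and the uncharacterised gene 2610318N02Rik had log2 differences of 0.41 and 0.34. In 11 of the 12 genes the CTL mean lay between the other means, the exception being Lrch4, and in 6 of the 12, Ccl5, Bcl2l1, Spr, Cebpb, Cd276 and Map2k7, all MS + Blebb. libraries also lay above all CTL libraries.

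The lower set held nuclear genes of several functions and 3 mitochondrial transcripts. Prxl2a, a peroxiredoxin-like protein, was at 7.77, 6.52 and 7.57 FPKM in MS and at 3.79, 3.01 and 5.64 FPKM in MS + Blebb., a log2 difference of -0.72 (SE 0.20). Mbp, a gene of myelin and of the Golli proteins, was at 60.2, 51.1 and 38.8 FPKM in MS and at 31.7, 37.3 and 21.5 FPKM in MS + Blebb., a log2 difference of -0.72 (SE 0.23). The gap between its lowest MS and its highest MS + Blebb. library was small beside the spread within MS. Idh1, the cytosolic NADP-dependent isocitrate dehydrogenase, was at 34.8, 22.8 and 28.4 FPKM in MS and at 17.9, 15.3 and 22.6 FPKM in MS + Blebb., a log2 difference of -0.60 (SE 0.24). Hadha, the alpha subunit of the mitochondrial trifunctional protein of fatty acid oxidation, was at 84.1, 77.3 and 82.5 FPKM in MS and at 66.3, 62.5 and 74.4 FPKM in MS + Blebb., a log2 difference of -0.26 (SE 0.11). The CTL means of Idh1 and Hadha lay between the others.

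Transcripts of the mitochondrial genome were also in this set. mt-Atp6, a subunit of ATP synthase, was at 3888, 3874 and 4006 FPKM in MS and at 2933, 2042 and 2861 FPKM in MS + Blebb., a log2 difference of -0.61 (SE 0.19). Its CTL libraries lay at 2090, 2586 and 2913 FPKM, so the MS libraries were the high ones. mt-Atp8 and mt-Nd4l had log2 differences of -0.67 and -0.58. They share 43 bases with mt-Atp6 and 7 bases with mt-Nd4 on the same strand, so their values may not be fully independent of their neighbours. Adam23, a disintegrin-family adhesion protein, had a log2 difference of -0.35 and was the 1 gene of the 12 whose MS + Blebb. libraries also lay below all CTL libraries. Rtca, an RNA terminal phosphate cyclase, Ift20, a component of ciliary transport, Mocs2, a subunit of molybdopterin synthase, and Commd5 had log2 differences of -0.33, -0.38, -0.34 and -0.41. The predicted gene Gm49527 shares exons with Commd5 on the same strand and differed the other way. It was at 0, 5.33 and 0.19 FPKM in MS and at 4.63, 5.29 and 3.92 FPKM in MS + Blebb. Commd5 was highest in MS replicate 1, at 15.6 FPKM, where Gm49527 was at 0. Reads of these gene models may be split between them in a way that cannot be checked here.

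**Figure D1:**
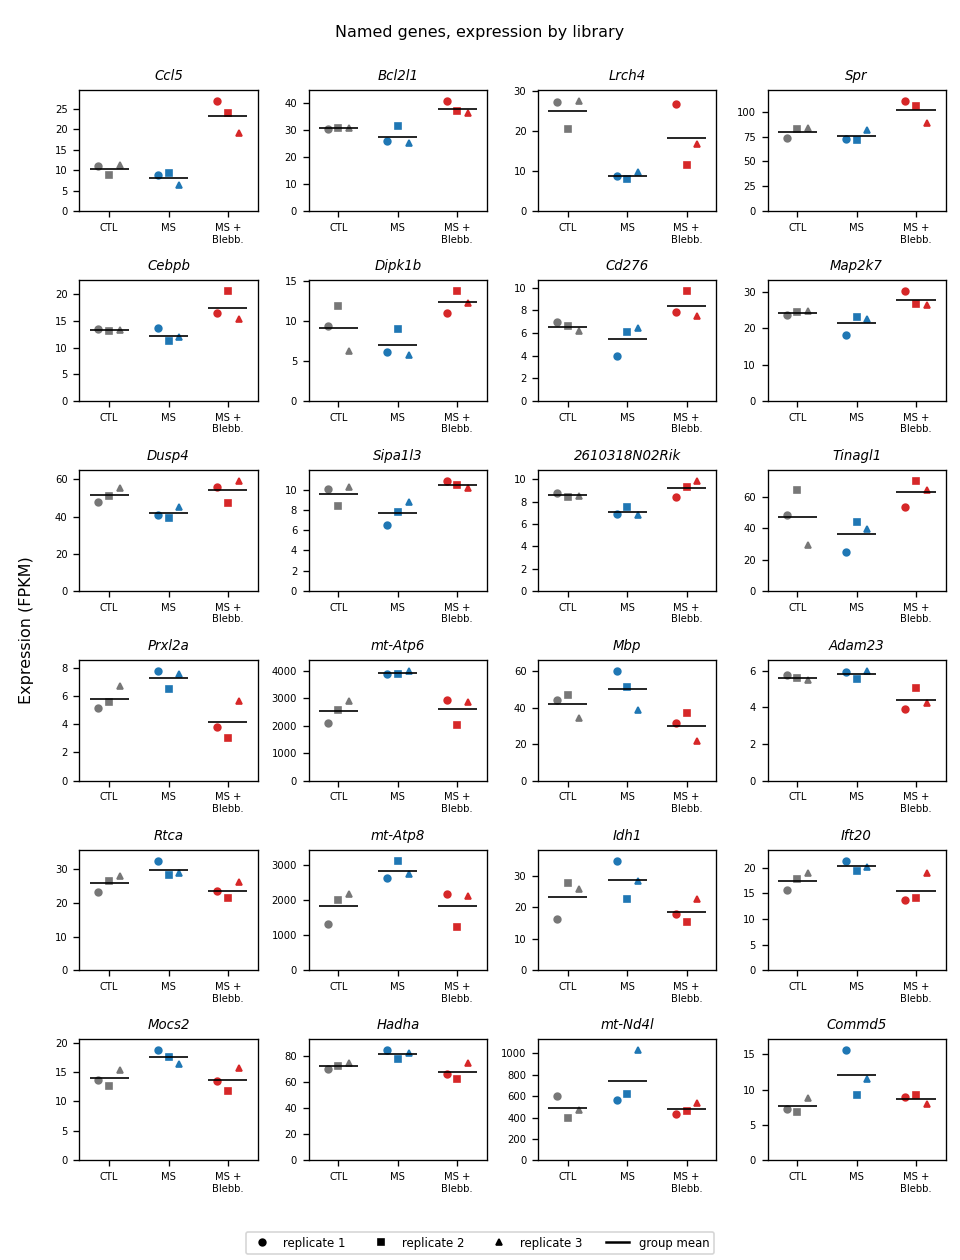
Expression of the 24 named genes in each library (vertical axes, FPKM from 0), with the groups CTL, MS and MS + Blebb. along the horizontal axes; symbols mark the replicate and lines the group mean. In the first 12 panels the MS + Blebb. points lie above the MS points without overlap, and in the last 12 below; Ccl5, for example, is plotted at 26.8, 24.0 and 19.0 FPKM against 6.37 to 9.45 FPKM.

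Promoter sequences are printed for the first genes of each direction that have a single entry in the RefSeq promoter set (GRCm38.p6), so that the start regions of genes from the 2 directions can be read side by side. The set held 17 of the 24 named genes. Each stretch is the 250 bases before the transcription start used by that set, 5′ to 3′ on the gene's strand. They lie for Lrch4 at chr5:137628873-137629122 (plus strand), Spr at chr6:85137765-85138014 (minus strand), Adam23 at chr1:63445641-63445890 (plus strand) and Rtca at chr3:116508176-116508425 (minus strand). Those of Adam23 and Rtca reach into the annotated genes, which span chr1:63445717-63596111 and chr3:116488963-116508203. Capitals mark the GC box GGGCGG and the CCAAT box, on either strand.
Lrch4: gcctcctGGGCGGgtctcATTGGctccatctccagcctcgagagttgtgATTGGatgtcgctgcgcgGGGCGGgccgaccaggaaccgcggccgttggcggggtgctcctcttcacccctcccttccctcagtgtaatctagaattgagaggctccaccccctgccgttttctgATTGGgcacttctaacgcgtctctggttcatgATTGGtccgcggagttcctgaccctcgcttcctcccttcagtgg
Spr: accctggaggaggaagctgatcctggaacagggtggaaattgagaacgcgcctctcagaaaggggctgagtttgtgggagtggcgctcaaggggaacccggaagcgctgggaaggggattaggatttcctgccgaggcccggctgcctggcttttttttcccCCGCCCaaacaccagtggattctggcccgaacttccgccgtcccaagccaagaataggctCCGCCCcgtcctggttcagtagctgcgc
Adam23: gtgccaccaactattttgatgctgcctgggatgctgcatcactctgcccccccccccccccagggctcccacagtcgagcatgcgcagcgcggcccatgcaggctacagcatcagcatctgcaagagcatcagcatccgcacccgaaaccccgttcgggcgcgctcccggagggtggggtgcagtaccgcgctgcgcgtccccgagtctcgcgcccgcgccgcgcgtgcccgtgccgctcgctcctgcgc
Rtca: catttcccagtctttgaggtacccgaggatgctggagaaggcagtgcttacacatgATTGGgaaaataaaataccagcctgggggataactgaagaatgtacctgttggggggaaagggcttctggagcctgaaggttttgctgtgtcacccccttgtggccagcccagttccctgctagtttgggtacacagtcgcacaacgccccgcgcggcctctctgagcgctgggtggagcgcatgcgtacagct
The Lrch4 stretch held 2 GC boxes and 4 CCAAT boxes, that of Spr 2 GC boxes, that of Adam23 none of these letters, and that of Rtca 1 CCAAT box. Over the promoters of the genes tested, 60.3% held a GC box and 35.8% a CCAAT box in a window of the same length. The AP-1 site TGANTCA, present in 3.96% of them, was in none of the 4. These matches are a description of the letters in the window.

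The direction of a gene went with the base composition of its transcripts. Across the 9750 genes with a GC content, which are not independent of each other, the difference between the groups correlated with GC content with r = 0.656 (0.495 without MS replicate 1). Among the 1950 genes with the lowest GC content, up to 44.2%, the median difference was -0.33, and 7 genes were higher and 17 lower with no overlap. Among the 1950 with the highest GC content, from 55.6%, the median was 0.14, with 128 higher and 5 lower. The 12 genes of the higher set had GC contents of 51.8% to 67.2%, and those of the lower set 31.9% to 54.9%. Within the groups the libraries were also spread along this axis: the deviation of a library from the mean of all libraries correlated with GC content with r = -0.642, 0.056 and -0.156 in MS and 0.545, 0.545 and -0.536 in MS + Blebb. After the trend of each library on GC content was removed, 208 genes were higher and 140 lower with no overlap, so that 59.8% of such genes were higher, where it was 81.7% before. Of the 305 higher genes with a GC content 99 were still without overlap in the same direction, and of the 62 lower genes 25. No gene passed the adjusted threshold there either (smallest adjusted p = 0.292, limma). Ccl5 kept a log2 difference of 1.33, Lrch4 of 0.75, Bcl2l1 of 0.34, Prxl2a of -0.59 and Mbp of -0.74, while mt-Atp6 had -0.18 and Mocs2 -0.02. Cebpb came from 0.47 to 0.26, Dusp4 from 0.36 to 0.24 and Map2k7 from 0.37 to 0.25. The 12 genes of the higher set then ran from 0.24 to 1.33, where they ran from 0.34 to 1.40 before. The part of base composition in the results was not tested beyond such values, which are given below for the list medians that turned sign with the trend removed and for some genes.

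**Figure D2:**
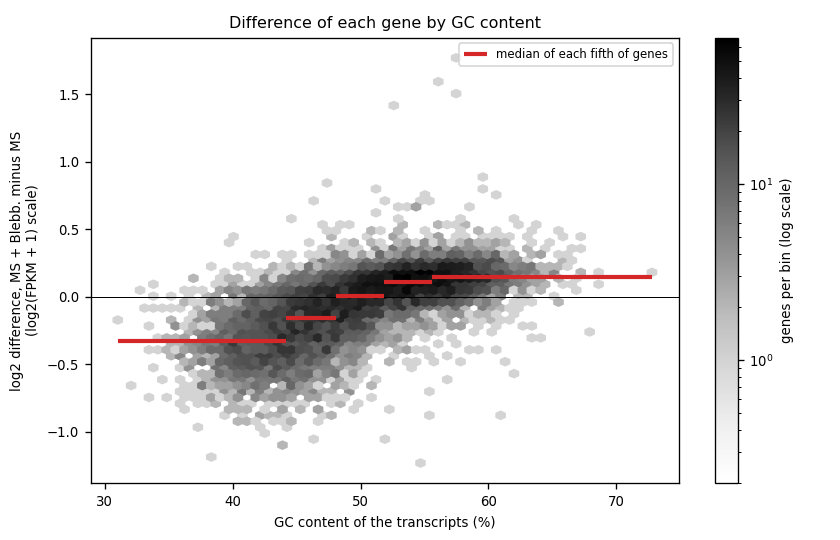
Difference of each gene between MS + Blebb. and MS (vertical axis, log2(FPKM + 1) scale) against the GC content of its transcripts in percent (horizontal axis), shaded by the number of genes on a log scale. Red lines give the medians of 5 equal bins of the 9750 genes, which go from -0.33 at the lowest GC content to 0.14 at the highest.

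The genes were then read by function, in 33 lists that together held 965 genes tested. No member of any list passed an adjusted p of 0.05 (limma). Among the members, 28 were higher with no overlap (2.90%) and 7 lower (0.725%), next to 3.05% and 0.683% of all genes. The median difference of a list lay within 0.1 of 0 in 22 of the 33 lists, where the median over all genes tested was -0.01. The lists farthest from 0 were ERK feedback and output genes on the higher side, and mitotic genes and mitochondrially encoded mRNAs on the lower side. The sign of a median was often not stable: it turned in 9 of the 33 lists with the GC trend removed, in 10 without the 3 libraries that stood apart, and in 24 for at least 1 library left out. It kept its side under all of these in 6 lists, namely ERK feedback and output genes, amino acid synthesis and transport, SMAD output and TGF beta ligands, focal adhesion genes, integrin subunits and ER chaperones. Changes of scaling were not among these checks. The medians of the last 3 lay within 0.1 of 0, and that of ER chaperones was -0.01, beside -0.01 over all genes.

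**Figure D3:**
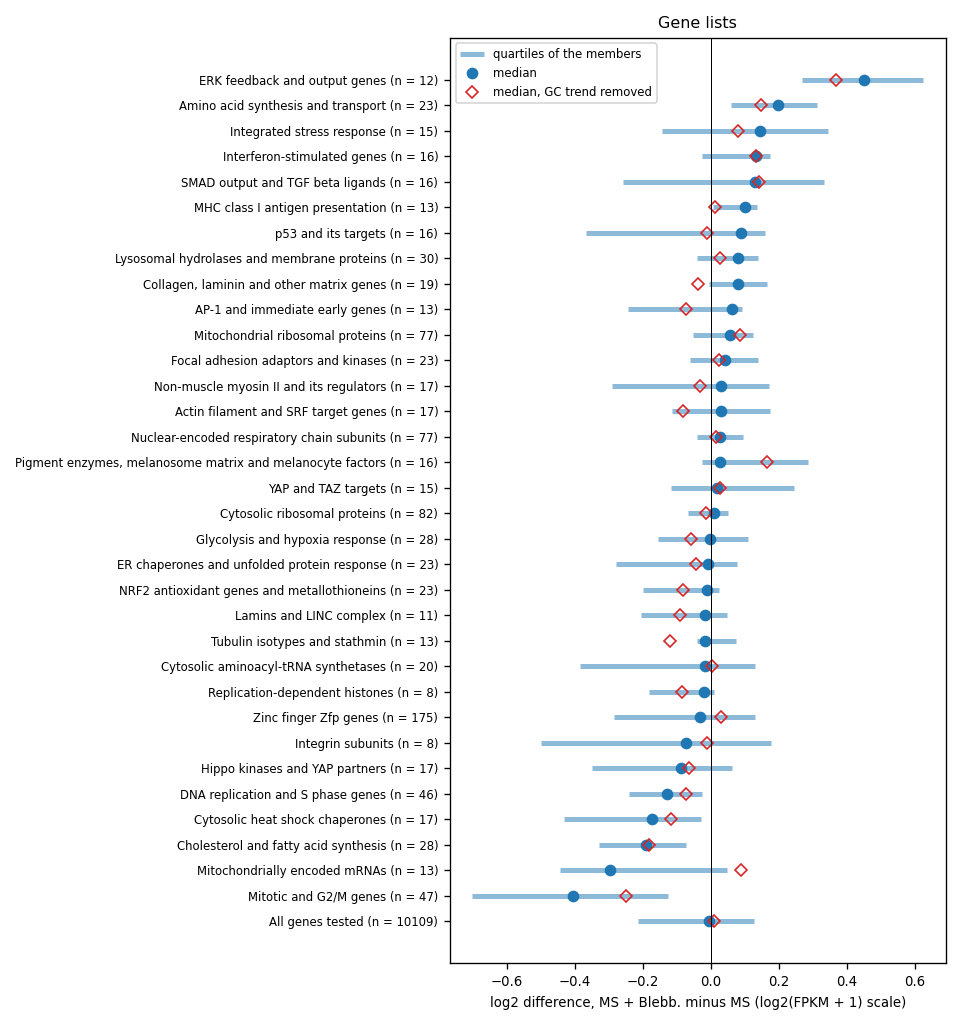
Differences of the 33 gene lists between MS + Blebb. and MS (horizontal axis, log2(FPKM + 1) scale), with filled points for the median of the members tested, bars for their quartiles and open diamonds for the median after the GC trend was removed. ERK feedback and output genes lie at 0.45 and 0.37 by these medians, mitotic genes at -0.41 and -0.25, and mitochondrially encoded mRNAs change side, from -0.30 to 0.09.

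The genes of the drug's target and of the actin cytoskeleton came first. Myh9, the heavy chain of non-muscle myosin IIA, was at 54.4, 35.7 and 41.3 FPKM in MS and at 46.1, 35.3 and 48.5 FPKM in MS + Blebb. The groups overlapped, and the log2 difference was -0.01 with a 95% interval of -0.61 to 0.59, so changes to the mRNA of the target within this interval could not be detected, and its sign turned with the library left out. Myh10 and Myl9 did not reach the minimum level. Over the 17 tested genes of myosin II and its regulators the median difference was 0.03, with 9 above 0 and 8 below; it turned to -0.03 once the GC trend was removed and to -0.09 without the 3 libraries that stood apart. Mylk, myosin light chain kinase, had a log2 difference of -0.38 (SE 0.23) with overlap.

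Actin and SRF target genes showed a similar median, with 2 members higher without overlap (11.8%, where 3.05% of all genes were). Of the 17 tested, 10 lay above 0 and the median difference was 0.03 (-0.08 with the GC trend removed). Srf, the factor that drives actin and adhesion genes, was at 14.7, 18.3 and 17.6 FPKM in MS and at 24.4, 20.1 and 20.1 FPKM in MS + Blebb. (log2 difference 0.34, SE 0.14, 95% interval 0.02 to 0.65). Cnn2, a calponin that binds actin bundles, was at 22.4, 23.7 and 19.6 FPKM in MS and at 33.4, 25.6 and 26.8 FPKM in MS + Blebb. (log2 difference 0.36, SE 0.15). In both genes all MS + Blebb. libraries lay above all MS libraries, and with the GC trend removed the log2 differences were 0.15 for Srf and 0.28 for Cnn2. Actb was at 846.6, 942.2 and 475.9 FPKM in MS and at 1087, 499.2 and 915.4 FPKM in MS + Blebb., where the low value of each group was that of the library that stood apart. Its log2 difference of 0.13 had a 95% interval of -0.88 to 1.14 and turned sign when MS replicate 3 or MS + Blebb. replicate 1 was left out.

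Adhesion and nuclear linkage genes did not separate the groups. Of 23 focal adhesion adaptors and kinases 15 lay above 0 (median 0.04) and none was without overlap; Git1, an adaptor of the paxillin complex, had a log2 difference of 0.31 (SE 0.14). The 8 integrin subunits tested were split evenly, with a median of -0.07. Itgb1, the beta subunit shared by most matrix receptors, was at 54.2, 31.5 and 47.2 FPKM in MS and at 23.5, 17.3 and 46.0 FPKM in MS + Blebb., and Itga6, a laminin receptor subunit, had a log2 difference of -0.68 beside -0.68 for Itgb1 (SE 0.40 and 0.37). In lamins and the LINC complex, which links the nucleus to actin, the median of 11 genes was -0.02 (0.04 without the 3 libraries that stood apart). Syne2, the giant nesprin of that complex, was at 9.20, 3.40 and 6.09 FPKM in MS and at 2.66, 1.98 and 4.54 FPKM in MS + Blebb., with overlap and a log2 difference of -0.80 (SE 0.34). The 13 tubulin and stathmin genes tested had a median of -0.02.

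The transcriptional routes named above were read next, where 3.05% of all genes were higher with no overlap. The share was 13.3% in YAP and TAZ targets and 6.25% in SMAD output genes, from 2 members and 1 member. The 15 YAP and TAZ target genes tested had a median of 0.02, with 8 above 0. Axl, a receptor tyrosine kinase, and Fjx1 were the members without overlap; Axl was at 1.75, 2.52 and 3.69 FPKM in MS and at 3.94, 6.97 and 3.77 FPKM in MS + Blebb. (log2 difference 0.68, SE 0.30), and Fjx1 had a log2 difference of 0.32. The Hippo kinases and YAP partners had a median of -0.09 over 17 genes, with 11 below 0, which turned to 0.03 without MS + Blebb. replicate 2 and to 0.06 without the 3 libraries that stood apart. SMAD output genes and TGF beta ligands had a median of 0.13 over 16 genes, 10 of them above 0, and the 1 member without overlap was Smurf1, the ubiquitin ligase of SMADs, at 11.1, 14.0 and 13.8 FPKM in MS and 17.3, 17.1 and 15.2 FPKM in MS + Blebb. (log2 difference 0.33, SE 0.13). AP-1 and immediate early genes had a median of 0.06 over 13 genes with 9 above 0, which was -0.07 with 5 above 0 once the GC trend was removed, and none was without overlap. Klf6, a zinc finger factor of that list, had a log2 difference of -0.65 (SE 0.36).

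ERK feedback and output genes had the highest median of all lists. These are genes that ERK signalling is known to induce, among them inhibitors that act back on the cascade. Of the 12 tested, 10 lay above 0, and 3 of the 12 were higher with no overlap, where 3.05% of all genes were. The median difference was 0.45 (0.37 with the GC trend removed), it stayed between 0.28 and 0.72 with any 1 library left out, and it was 0.56 without the 3 libraries that stood apart. No p is given for the list, since it was chosen with results of these data known.

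Among the inhibitors, Spry2 was at 4.23, 5.27 and 3.62 FPKM in MS and at 7.80, 6.03 and 9.63 FPKM in MS + Blebb., a log2 difference of 0.71 (SE 0.31, 95% interval 0.01 to 1.40). Spry1, its close relative, was at 3.41, 4.39 and 3.60 FPKM in MS and at 7.0, 5.01 and 5.93 FPKM in MS + Blebb., a log2 difference of 0.54 (SE 0.19, 95% interval 0.11 to 0.96). Both Sprouty genes had no overlap, as had Dusp4 above, and in all 3 the CTL libraries overlapped the drug group. Dusp6, the cytosolic phosphatase of ERK, was at 28.1, 29.5 and 21.9 FPKM in MS and at 45.5, 25.2 and 51.1 FPKM in MS + Blebb., a log2 difference of 0.55 (SE 0.30). MS + Blebb. replicate 2, the library of that group that stood apart, was the one that overlapped.

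The effectors had higher means in MS + Blebb. as well, with overlap. Ccnd1, cyclin D1, was at 58.6, 60.3 and 28.7 FPKM in MS and at 96.8, 36.3 and 104.4 FPKM in MS + Blebb. (log2 difference 0.61, SE 0.48). Etv4 and Etv5, ETS factors downstream of ERK, were low, with Etv5 at 2.22, 3.04 and 0.66 FPKM in MS and at 5.56, 0.70 and 7.24 FPKM in MS + Blebb., and had log2 differences of 0.67 and 0.70 (SE 0.49 and 0.65). In Ccnd1, Etv4 and Etv5 the order of the libraries was the same: MS + Blebb. replicates 1 and 3 lay highest of the 6, MS replicates 1 and 2 between, and the 2 libraries that stood apart lowest. The 2 members below 0 were Spred1, another inhibitor of the cascade, at 9.63, 6.35 and 8.63 FPKM in MS and 6.82, 3.69 and 10.4 FPKM in MS + Blebb., and Ier3. Ier3 was at 48.5, 43.2 and 28.1 FPKM in MS and at 30.8, 30.2 and 26.9 FPKM in MS + Blebb., a log2 difference of -0.40 (SE 0.22). The mean of log2(FPKM + 1) over the 12 genes was 3.89, 3.96 and 3.49 in MS and 4.35, 3.59 and 4.47 in MS + Blebb., so the groups overlapped through MS + Blebb. replicate 2; in CTL it was 3.34, 4.14 and 4.21.

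**Figure D4:**
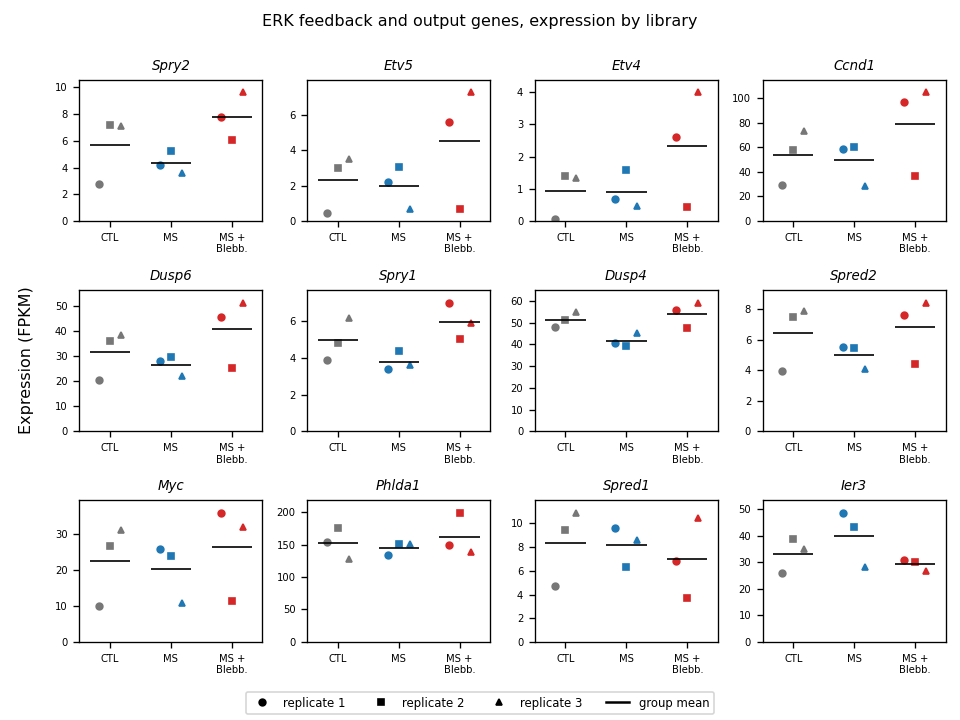
Expression of the 12 tested ERK feedback and output genes in each library (vertical axes, FPKM from 0) for CTL, MS and MS + Blebb. (horizontal axes), ordered by the difference between MS + Blebb. and MS; symbols mark the replicate and lines the group mean. Spry2, Spry1 and Dusp4 separate MS + Blebb. from MS, and in most other panels replicate 2 of MS + Blebb. (square) falls among the MS points.

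Cell cycle genes lay lower in MS + Blebb. by their medians, with wide spread. Of the 47 mitotic and G2/M genes tested, 42 were below 0, and the median difference was -0.41 (-0.25 with the GC trend removed). No member was without overlap and none had an unadjusted p under 0.05. Their mean level was 4.90, 4.26 and 3.72 in MS and 4.10, 2.97 and 4.55 in MS + Blebb. on the log2(FPKM + 1) scale. The median was 0.03 when MS + Blebb. replicate 2 alone was left out and -0.71 when replicate 3 of that group was. Without the 3 libraries that stood apart the median was -0.19. Mki67, a marker of cycling cells, was at 10.3, 2.01 and 0.61 FPKM in MS and at 0.78, 0.17 and 3.77 FPKM in MS + Blebb., and its log2 difference of -0.82 had a 95% interval of -2.72 to 1.08. Tpx2, a spindle assembly factor, was at 35.5, 16.8 and 17.9 FPKM in MS and at 13.7, 6.02 and 23.1 FPKM in MS + Blebb. (log2 difference -0.77, SE 0.52). Cdc25b, the phosphatase that starts mitosis, lay the other way, with a log2 difference of 0.26 (SE 0.17).

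DNA replication and S phase genes had 37 of 46 members below 0, with a median of -0.13. Gins4, a subunit of the replicative helicase, was the 1 member without overlap, at 28.6, 25.9 and 23.8 FPKM in MS and at 23.6, 19.5 and 23.8 FPKM in MS + Blebb. (log2 difference -0.22, SE 0.14). Brca1, a repair factor, had a log2 difference of -0.56 (SE 0.32). The median of the list turned to 0.26 without MS + Blebb. replicate 2 and was 0.01 without the 3 libraries that stood apart. The 8 tested histone genes had a median of -0.02. Their list was labelled replication-dependent but also took in H1f0, a linker histone outside that class.

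**Figure D5:**
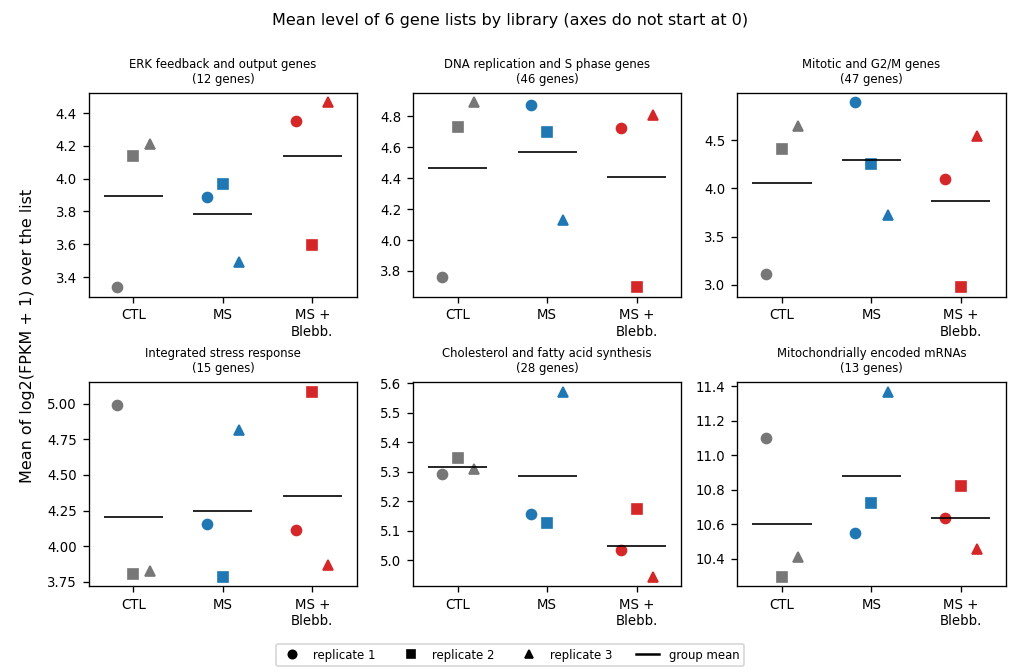
Mean of log2(FPKM + 1) over each of 6 gene lists (vertical axes, not starting at 0) for each library of CTL, MS and MS + Blebb. (horizontal axes); symbols mark the replicate and lines the group mean. Replicate 1 of CTL, replicate 3 of MS and replicate 2 of MS + Blebb. lie lowest of their group in S phase and mitotic genes and highest in stress response genes, and the groups overlap in all 6 panels.

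The integrated stress response, the program through which ATF4 answers amino acid shortage and other stress, had a median difference of 0.15 over 15 genes, 9 of them above 0. Atf4 was at 143.1, 128.9 and 280.5 FPKM in MS and at 174.1, 319.2 and 140.7 FPKM in MS + Blebb. The high value of each group was that of the library that stood apart, and the log2 difference of 0.20 turned to -0.14 without MS + Blebb. replicate 2. For Ddit3 the log2 difference was -0.24 with a 95% interval of -2.24 to 1.77. The median of the list was -0.18 when MS + Blebb. replicate 2 was left out, against 0.46 when it was MS replicate 3. Cebpb, described above, was the 1 member without overlap. Amino acid synthesis and transport genes had 18 of 23 members above 0 and a median of 0.20, between 0.07 and 0.35 with any 1 library left out. Got1, the cytosolic aspartate aminotransferase, had no overlap, at 148.3, 142.4 and 128.1 FPKM in MS and 150.7, 180.4 and 150.8 FPKM in MS + Blebb. (log2 difference 0.20, SE 0.13).

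Other genes of protein synthesis and folding were spread around 0. The 20 cytosolic aminoacyl-tRNA synthetases had a median of -0.02, with 10 above 0 and 10 below (0.00 with the GC trend removed and 0.04 without the 3 libraries that stood apart). Rars and Lars, the synthetases for arginine and leucine, had log2 differences of -0.63 and -0.85 (SE 0.27 and 0.39), and in both the groups overlapped through MS replicate 2 and MS + Blebb. replicate 3. The 23 ER chaperones and unfolded protein response genes had a median of -0.01, and Pdia3, a disulfide isomerase, had a log2 difference of -0.38 (SE 0.21). Cytosolic heat shock chaperones had 13 of 17 members below 0 and a median of -0.17, which turned to 0.05 without MS + Blebb. replicate 2. Dnaja1, a co-chaperone of HSP70, was at 43.4, 21.6 and 18.9 FPKM in MS and at 11.4, 6.89 and 30.1 FPKM in MS + Blebb. (log2 difference -0.90, SE 0.60). The 82 cytosolic ribosomal protein genes had a median of 0.01 (-0.02 with the GC trend removed and -0.05 without the 3 libraries that stood apart).

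Cholesterol and fatty acid synthesis genes had 22 of 28 members below 0 and a median of -0.19. With the GC trend removed 26 of the 28 were below 0 and the median was -0.18. Idi1, the isopentenyl diphosphate isomerase of the sterol pathway, was at 13.2, 6.81 and 9.98 FPKM in MS and at 3.99, 2.73 and 7.78 FPKM in MS + Blebb., a log2 difference of -0.96 (SE 0.44). Sc5d, a late step of the same pathway, had a log2 difference of -0.46 (SE 0.22), and Pmvk was the 1 member without overlap. The mean level of the list was 5.16, 5.13 and 5.57 in MS and 5.04, 5.17 and 4.94 in MS + Blebb. on the log2(FPKM + 1) scale, where MS replicate 3 stood highest. The median was 0.00 when MS replicate 3 alone was left out and -0.15 without the 3 libraries that stood apart.

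Mitochondrial genes were read by where they are encoded. Of the 13 mRNAs of the mitochondrial genome, 8 were below 0, and the median was -0.30. As given above, 3 of the 13 were lower without overlap, where 0.683% of all genes were. Removing the GC trend gave a median of 0.09, leaving out MS replicate 3 alone gave 0.04, and leaving out the 3 libraries that stood apart gave -0.09. mt-Co1, the most abundant of them, was at 5598, 6094 and 15415 FPKM in MS and at 7975, 13059 and 5558 FPKM in MS + Blebb. The 77 nuclear-encoded respiratory chain genes had a median of 0.03 (-0.12 without the 3 libraries that stood apart). Ndufa1, a subunit of complex I, and Sdha, the flavoprotein of complex II, had log2 differences of -0.37 and -0.51 (SE 0.13 and 0.19) with overlap. Of the 77 mitochondrial ribosomal protein genes 51 were above 0 (median 0.05), and 5 were higher with no overlap (6.49%, against 3.05% of all genes), namely Mrpl44, Mrpl57, Mrps17, Mrps2 and Mrps30. Mrps17 was at 21.6, 17.0 and 19.3 FPKM in MS and at 23.4, 23.8 and 25.5 FPKM in MS + Blebb. (log2 difference 0.32, SE 0.12), and Mrpl57 had a log2 difference of 0.31 (SE 0.15). The median of this list turned to -0.07 when MS replicate 3 was left out and to -0.04 without the 3 libraries that stood apart.

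The median of the melanocyte genes was close to that of all genes but depended on single libraries. The 16 pigment and melanocyte factor genes had a median of 0.03 (0.17 with the GC trend removed), with 11 above 0. Mitf, the master factor of melanocytes, was at 36.2, 16.7 and 21.2 FPKM in MS and at 14.2, 8.51 and 30.7 FPKM in MS + Blebb., and its log2 difference of -0.56 had a 95% interval of -1.74 to 0.62. Tyr, the first enzyme of melanin synthesis, was at 49.7, 41.6 and 80.5 FPKM in MS and at 49.6, 74.9 and 47.5 FPKM in MS + Blebb., with a log2 difference of 0.03 whose sign turned with the scaling and with the library left out. Pax3 and Trpm1 had log2 differences of -0.35 and 0.80 (SE 0.19 and 0.65), and in both the groups overlapped.

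In the immune lists Ccl5 was the 1 gene without overlap. Of the 16 interferon-stimulated genes tested 12 were above 0, with a median of 0.13 that turned to -0.19 without MS + Blebb. replicate 2 and to -0.07 without the 3 libraries that stood apart. MHC class I genes had 10 of 13 members above 0 and a median of 0.10, which was -0.11 without MS + Blebb. replicate 2, and Tap1, the peptide transporter, had a log2 difference of 0.45 (SE 0.23). Of the 16 p53 genes 10 were above 0 (median 0.09, and -0.01 with the GC trend removed), and Phlda3, an inhibitor of AKT that p53 induces, was higher without overlap, at 92.3, 95.4 and 85.3 FPKM in MS and 108.5, 109.8 and 104.4 FPKM in MS + Blebb. (log2 difference 0.24, SE 0.12).

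The remaining lists had medians within 0.1 of 0. Collagen, laminin and other matrix genes had 13 of 19 members above 0 and a median of 0.08, which was -0.04 with 8 above 0 once the GC trend was removed. Lysosomal genes had 20 of 30 above 0 and a median of 0.08, which was -0.08 without MS + Blebb. replicate 2 and 0.00 without the 3 libraries that stood apart. Lamp2, a lysosomal membrane protein, had a log2 difference of -0.49 (SE 0.20), which was -0.12 with the GC trend removed. Glycolysis and hypoxia genes had a median of 0.00 over 28 genes; Car9, a carbonic anhydrase induced by hypoxia, was higher with no overlap at 1.80 to 2.33 FPKM against 1.21 to 1.49 FPKM in MS (log2 difference 0.40), and Bnip3l, a mitophagy receptor, had a log2 difference of -0.51 (SE 0.23). NRF2 targets and metallothioneins had a median of -0.01 over 23 genes, and Nqo1, a quinone reductase of that list, was at 37.2, 18.8 and 11.4 FPKM in MS and at 11.98, 6.33 and 13.5 FPKM in MS + Blebb. (log2 difference -0.92, SE 0.42). The 175 zinc finger genes named Zfp had a median of -0.03, with 83 above 0 and 92 below (0.03 with the GC trend removed).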

How the data were processed

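RNA sequencing of B16 cells was read in 9 libraries, 3 per group, mapped to groups and replicates by their titles. Per the labels, RNA was taken with TRIzol and libraries were made with the SMARTER mRNA-Seq kit. The authors deposited 1 FPKM value per gene and library; genome builds GRCm38 and mm10 come from the submitters' processing notes, and the aligner and counting tool are not given in the sources used here. One column was headed with a sample name and read as FPKM like the rest. Read counts were not used here, and low values showed no common step between libraries, so depth is unknown and no counting interval is given. FPKM summed to 439939 to 484093 per library.

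Values were taken as log2(FPKM + 1). Genes averaging 1 FPKM or more were fitted with limma 3.58.1 (R 4.3.3), with a variance trend, over 9 libraries in 3 groups, and MS + Blebb. minus MS was tested 2-sided with Benjamini-Hochberg adjustment over 10109 genes at 0.05. A gene had no overlap when all 3 values of a group lay beyond all 3 of the other. GC content came from GENCODE M21 transcripts for 9750 genes (96.4%), and its trend was removed per library by loess (span 0.5). Positions and promoters came from RefSeq (GRCm38.p6). Named were, among genes of at least 5 FPKM with no overlap, the 12 with the smallest p in each direction, in each list the member with the highest level and the 2 with the smallest p (those whose values add to the description), and a fixed set of class genes with Myh9, Actb, Srf, Atf4, Ddit3, Mitf, Tyr and Mki67; other members of a list are named where they had no overlap or belong to the ERK genes, chosen after their values were seen. The members and lists were chosen with earlier results of these data known, so no list has a p of its own. The fit was also run on simulated data with independent noise in each gene. These held no library that stood apart and no GC trend, so they cannot show how the fit behaves with either.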

Additional observations from a re-analysis of the deposited data

How the results depend on the processing

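No gene passed the adjusted threshold under any of the 22 alternatives except when MS replicate 2 was left out, with 1 gene. The counts at an unadjusted p under 0.05, which were 73 higher and 53 lower, came to 231 and 151 with no minimum level, 29 and 33 with only the 6 libraries compared, 341 and 245 with a block for the libraries that stood apart, and 357 and 368 with that block and the GC trend removed. The lower count was 35 with a minimum of 5 FPKM and 91 with median-of-ratios factors. The replicate block gave 39 and 80, but it rests on a shared number only: the deviations of same-numbered libraries of the 2 groups correlated with -0.04, -0.04 and -0.55, and none of the 3 correlated best with its own number. With 1 library left out the higher count ranged from 19, when it was MS + Blebb. replicate 1, to 308, when it was replicate 3 of that group. The lower count ranged from 11, when it was MS replicate 1, to 626, when it was MS + Blebb. replicate 3. The genes without overlap, 308 higher and 69 lower, came to 465 and 217 with no minimum level, and to 1323 and 653 without the 3 libraries that stood apart, where 2 values per group separate more easily. The higher count was 194 with median-of-ratios factors, and the lower count 38 with a minimum of 5 FPKM and 140 with the GC trend removed. With 1 library left out the counts without overlap lay between 308 and 1618 and between 69 and 2015, both highest when MS + Blebb. replicate 3 was left out. Leaving out a compared library can only keep or raise these counts, and the low ends are the counts with all libraries. The causes were not tested.

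Of 72 single genes under 22 alternatives, the sign of a log2 difference turned for 5, all with intervals that include 0. Most of the 72 were named for no overlap or a small p in these same data, so their stable signs are no separate support. The 5 that turned were all class genes, which were named whatever their values. Myh9 came to 0.0258 with median-of-ratios factors, 0.10 without the 3 libraries that stood apart, and -0.14 to 0.16 with 1 library left out. Tyr came to -0.0292 with quantile normalization and -0.18 to 0.30 with 1 library left out. Over single libraries left out, Actb ranged from -0.17 to 0.46, Atf4 from -0.14 to 0.54 and Ddit3 from -1.06 to 0.26. Depth is unknown, so which low genes were limited by it cannot be said.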

Other observations

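The genes with the largest differences, 1 or more on the log2(FPKM + 1) scale, were 13 and were chosen here by that size after their values were seen. Ccl5 was one of them, and examples of the others without overlap follow. The predicted gene Gm49380 was at 3.14, 0.46 and 0.76 FPKM in MS and at 6.70, 4.42 and 5.79 FPKM in MS + Blebb., next to 4.63 to 8.70 FPKM in CTL, and its log2 difference was 1.58 (SE 0.38). Gm14391 was at 1.08, 2.48 and 1.62 FPKM in MS and at 0.36, 0.05 and 0.57 FPKM in MS + Blebb. The uncharacterised gene 2310057J18Rik was at 6.89, 2.42 and 3.21 FPKM in MS and at 1.83, 0.50 and 1.18 FPKM in MS + Blebb. Clvs1, a clathrin-associated lipid binding protein, was at 10.4, 3.85 and 4.94 FPKM in MS and at 2.58, 1.06 and 3.68 FPKM in MS + Blebb. The lowest MS library of Clvs1 lay close to its highest MS + Blebb. library.

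Others of the 13 overlapped between the groups and varied widely between libraries. Fos, an immediate early gene, was at 15.2 FPKM in MS replicate 3 and between 0.71 and 1.12 FPKM in the other 5 libraries of the comparison. Hsp90aa1, the inducible HSP90 chaperone, was at 169.4, 78.1 and 14.9 FPKM in MS and at 30.8, 4.66 and 124.1 FPKM in MS + Blebb. Rpl17, a ribosomal protein of the large subunit, was at 385.8, 240.7 and 175.5 FPKM in MS and at 158.9, 42.4 and 253.5 FPKM in MS + Blebb., unlike the other cytosolic ribosomal protein genes, whose quartiles of the difference were -0.07 and 0.05.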
